A study of Mus musculus with 3 samples.

Results

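The primary (azurophil) granule genes described here are Mpo, Elane, Prtn3, Ctsg, Ms4a3, Serpinb1a, Ctsc and Lyz2, picked by symbol, 8 of the 32285 genes in the tables. Most encode granule cargo or its activating protease. Serpinb1a encodes a cytosolic inhibitor of granule proteases, and Ms4a3 a membrane protein known as a progenitor marker. Primary granules are the first granules that a developing neutrophil packs. Their main cargo is transcribed at the promyelocyte stage and then shut off, so that a mature neutrophil carries the proteins with little of the messenger RNA. Monocyte progenitors make part of the same cargo, while lysozyme is made throughout the life of neutrophils, monocytes and macrophages.

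Marrow of the femur and tibia was taken from C57BL/6J mice, passed over a Ficoll gradient and profiled with 10x Genomics 3' v3.1 droplet chemistry. MI-E is myocardial infarction (tying off of the LAD coronary artery) with EMPA, which the labels give only by this abbreviation; MI is infarction alone; Sham is the operated control. Each group is 1 library, and the sources used here do not give how many animals it holds, so nothing was tested and each value describes these libraries. The tables hold 109451500 UMIs (counted molecules) for MI-E, 127330601 for MI and 99657072 for Sham. Filtering left 19616 MI-E, 20459 MI and 21273 Sham cells, whose median depth was 2581.5, 3113 and 2132 UMIs. Between 156 and 176 barcodes were shared by each pair of libraries; without those cells the 6 list medians given for the pooled classes kept their direction.

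Cells were clustered without the 8 genes and named from other markers, as "-like" cells. The granulocyte-monocyte progenitor-like (GMP-like) cluster was led by Nkg7, Rgcc, Gfi1, Srgn, Cst7 and Fcnb, and 15 of its 17 markers were detected. It held 448 MI-E, 472 MI and 332 Sham cells. The haematopoietic stem and multipotent progenitor-like (HSPC-like) cluster, led by Pf4, Ctla2a, Cd34 and Adgrg1, held 381, 406 and 256 cells in the same libraries. Levels are UMIs per 1000000 UMIs of a class (CPM), with exact 95% intervals in brackets that cover counting error only. Different clusters hold some classes. Of mature neutrophil-like cells, 1 cluster held 3.37% in MI-E, 1.44% in MI and 91.7% in Sham. Of classical monocyte-like cells, 1 cluster held 97.0% in MI-E, 99.1% in MI and 1.04% in Sham. Where 1 library fills a cluster, library and cell state cannot be told apart.

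On mouse build mm10 (GENCODE M21), Mpo (ENSMUSG00000009350) lies at chr11:87793581-87804413 and Ctsg (ENSMUSG00000040314) at chr14:56099881-56102574. Prtn3 (ENSMUSG00000057729) at chr10:79874476-79883174 and Elane (ENSMUSG00000020125) at chr10:79886247-79888215 are neighbours on the plus strand. Ms4a3 (ENSMUSG00000024681) is at chr19:11629496-11640851, Serpinb1a (ENSMUSG00000044734) at chr13:32842092-32851185, Ctsc (ENSMUSG00000030560) at chr7:88278085-88310888 and Lyz2 (ENSMUSG00000069516) at chr10:117277331-117282321. All 8 are protein-coding. Of the 30-base words of the longest Lyz2 transcript, 34.0% also occur in Lyz1, and 7.62% of those of Serpinb1a occur in Serpinb1b, so reads could be split between these copies and both levels are uncertain to that extent.

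The promoters of the peroxidase gene and of the serine protease genes are shown because PU.1 and MYB, regulators of early myeloid genes, have known binding letters that can be looked for in them. RefSeq (GRCm38.p6) gave the 250 bases before the start for 7 of the 8 genes; Serpinb1a had no match. Each is written 5′ to 3′ on the gene's strand, and capitals mark AGGAAGT (PU.1 type) and CAACNG (MYB type) on either strand.
Mpo, chr11:87793534-87793783, plus strand: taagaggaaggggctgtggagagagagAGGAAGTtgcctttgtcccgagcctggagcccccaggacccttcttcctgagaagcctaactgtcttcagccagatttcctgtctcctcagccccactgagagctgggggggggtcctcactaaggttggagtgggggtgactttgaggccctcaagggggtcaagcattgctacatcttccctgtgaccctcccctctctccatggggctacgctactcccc
Elane, chr10:79886062-79886311, plus strand: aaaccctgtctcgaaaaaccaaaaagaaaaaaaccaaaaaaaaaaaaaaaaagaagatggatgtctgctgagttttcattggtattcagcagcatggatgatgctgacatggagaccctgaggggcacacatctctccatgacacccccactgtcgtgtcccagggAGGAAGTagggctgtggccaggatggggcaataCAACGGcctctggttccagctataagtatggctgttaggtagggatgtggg
Prtn3, chr10:79879417-79879666, plus strand: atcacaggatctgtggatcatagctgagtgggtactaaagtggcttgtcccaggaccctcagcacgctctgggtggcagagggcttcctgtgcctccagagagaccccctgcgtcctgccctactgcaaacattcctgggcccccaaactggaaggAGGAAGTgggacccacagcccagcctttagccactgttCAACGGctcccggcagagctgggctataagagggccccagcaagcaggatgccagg
Ctsg, chr14:56102575-56102824, minus strand: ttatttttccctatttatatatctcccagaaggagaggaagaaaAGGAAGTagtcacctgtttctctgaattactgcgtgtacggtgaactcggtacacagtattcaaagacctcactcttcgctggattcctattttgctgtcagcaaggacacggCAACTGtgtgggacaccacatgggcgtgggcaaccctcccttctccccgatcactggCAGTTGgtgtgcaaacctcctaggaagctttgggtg

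Elane and Prtn3 share a layout near the start: AGGAAGT at -84 and CAACGG at -51 in Elane, and the same letters at -94 and -56 in Prtn3, counted from the RefSeq start. The GENCODE gene starts given above coincide with it for Ctsg but lie inside the printed stretch for Mpo and Elane and upstream of it for Prtn3, so positions would differ with that annotation. Both also hold TATAA, at -31 in Elane and -32 in Prtn3. Mpo holds AGGAAGT at -223, and Ctsg holds it at -206 with CAACTG at -93. AGGAAGT or its complement is in 6 of the 7 promoters, all but that of Ms4a3, against 7.69% of 32851 mouse promoters of the same length. CAACNG is in 4 of 7, against 29.3%. Other letters were also searched on either strand. GCAAT (C/EBP type) is in 2 of 7, against 23.1%, and TGTGGT (RUNX type) in 2 of 7, against 14.0%. TATAA is in 3 of 7, against 22.8%. The letters were chosen with these sequences in view, and a match is a description, not a bound site.

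Mpo encodes myeloperoxidase, the haem enzyme that makes hypochlorous acid in the phagosome. In GMP-like cells it stood at 7057 CPM (6999 to 7116) in MI-E, 5391 (5345 to 5437) in MI and 7718 (7644 to 7792) in Sham. HSPC-like cells held 1973 CPM in MI-E, 2169 in MI and 1335 in Sham, and dividing monocyte progenitor-like cells 1447, 1302 and 1128 CPM. One step on in the neutrophil line, dividing neutrophil precursor-like cells held 167 CPM in MI-E, 165 in MI and 105 in Sham. Immature neutrophil-like cells held 49.4, 50.9 and 34.7 CPM in the same libraries. The order GMP-like, HSPC-like, dividing monocyte progenitor-like and dividing neutrophil precursor-like was the same in each library. B lineage-like cells, which do not make myeloperoxidase, held 104 CPM in MI-E, 108 in MI and 59.6 in Sham, a level that free RNA in the droplets can give. Mature neutrophil-like cells (75.6, 61.4 and 64.7 CPM) and classical monocyte-like cells (48.5, 44.6 and 45.4 CPM) lay at or under it, with mature neutrophil-like cells of Sham close above it.

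Elane, neutrophil elastase, was the most confined of the serine proteases: GMP-like cells held 63.0% of its UMIs in MI-E, 65.5% in MI and 78.2% in Sham. Its GMP-like level was 8154 CPM (8092 to 8218) in MI-E, 8011 (7955 to 8067) in MI and 12204 in Sham. Dividing neutrophil precursor-like cells still held 574, 715 and 540 CPM, above the 96.9, 92.6 and 62.7 CPM of B lineage-like cells. Prtn3, proteinase 3, stood at 7699, 7858 and 9590 CPM in GMP-like cells of MI-E, MI and Sham. It reached further along the monocyte line: dividing monocyte progenitor-like cells held 2631, 2941 and 1885 CPM, and 45.4%, 38.4% and 22.9% of its UMIs. Classical monocyte-like cells held 225 CPM of Prtn3 in MI-E and 290 in MI, above their B lineage-like levels of 120 and 128. In Sham they held 85.5 CPM, against 65.2 in B lineage-like cells. Natural killer-like cells held Prtn3 at 28.6%, 26.5% and 11.7% of all-cell levels of 1616, 1669 and 1044 CPM in MI-E, MI and Sham. This lay above the classical monocyte-like level in each library, and the part of free RNA in that level was not tested.

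Ctsg, cathepsin G, stood at 2959 CPM (2921 to 2997) in MI-E, 4165 (4125 to 4205) in MI and 3153 (3106 to 3200) in Sham in GMP-like cells. Basophil-like cells also held it, at 877 CPM in MI-E, 1358 in MI and 2320 in Sham, with 10.2% of all Sham Ctsg UMIs. Mpo was also present there, at 591, 464 and 1224 CPM, whereas Elane in basophil-like cells (82.7, 89.4 and 52.1 CPM) did not exceed the B lineage-like level in any library. Ms4a3, a membrane protein known as a marker of granulocyte and monocyte progenitors, stood at 1437, 1762 and 1485 CPM in GMP-like cells of MI-E, MI and Sham, and at 204, 283 and 235 CPM in dividing neutrophil precursor-like cells.

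Serpinb1a, a cytosolic inhibitor of elastase, proteinase 3 and cathepsin G, outlasted its targets. GMP-like cells held 962 CPM in MI-E, 947 in MI and 904 in Sham. Dividing neutrophil precursor-like cells held 1104, 1140 and 777 CPM, immature neutrophil-like cells 803, 736 and 567, and mature neutrophil-like cells 313, 311 and 290. Each of these is above the B lineage-like level of 189 CPM in MI-E, 196 in MI and 114 in Sham.

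Ctsc, cathepsin C, the protease that activates the granule serine proteases, was low in GMP-like cells, where their RNA was highest. GMP-like cells held 23.5 CPM in MI-E, 23.0 in MI and 15.4 in Sham, under the 93.6, 84.5 and 67.7 CPM of B lineage-like cells and above the 19.4, 16.6 and 10.6 CPM of erythroid-like cells. Dividing monocyte progenitor-like cells held it beside the proteases, at 366 CPM in MI-E, 249 in MI and 268 in Sham, with all 8 genes detected in 35.8%, 41.3% and 14.7% of them. Classical monocyte-like cells held 530, 425 and 456 CPM, and the monocyte classes together held 86.7% of Ctsc UMIs in MI-E, 84.6% in MI and 73.7% in Sham. C1q macrophage-like cells stood at 629, 331 and 381 CPM.

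Lyz2, the myeloid lysozyme, was higher in the classes past the GMP-like cells. HSPC-like cells held 158 CPM in MI-E, 213 in MI and 198 in Sham, GMP-like cells 471, 345 and 1322, and immature neutrophil-like cells 4541, 3803 and 8854. B lineage-like cells stood at 4.07%, 5.40% and 3.05% of all-cell levels of 3958, 4635 and 6151 CPM. The HSPC-like level lay under the B lineage-like one in MI-E and MI and close above it in Sham. The GMP-like level lay above it in each library. Mature neutrophil-like cells stood lower than immature ones, at 2099, 1599 and 5601 CPM, and classical monocyte-like cells held 14420, 16060 and 24812. Monocyte classes held 73.9% of its UMIs in MI-E, 77.4% in MI and 77.0% in Sham.

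**Figure D1:**
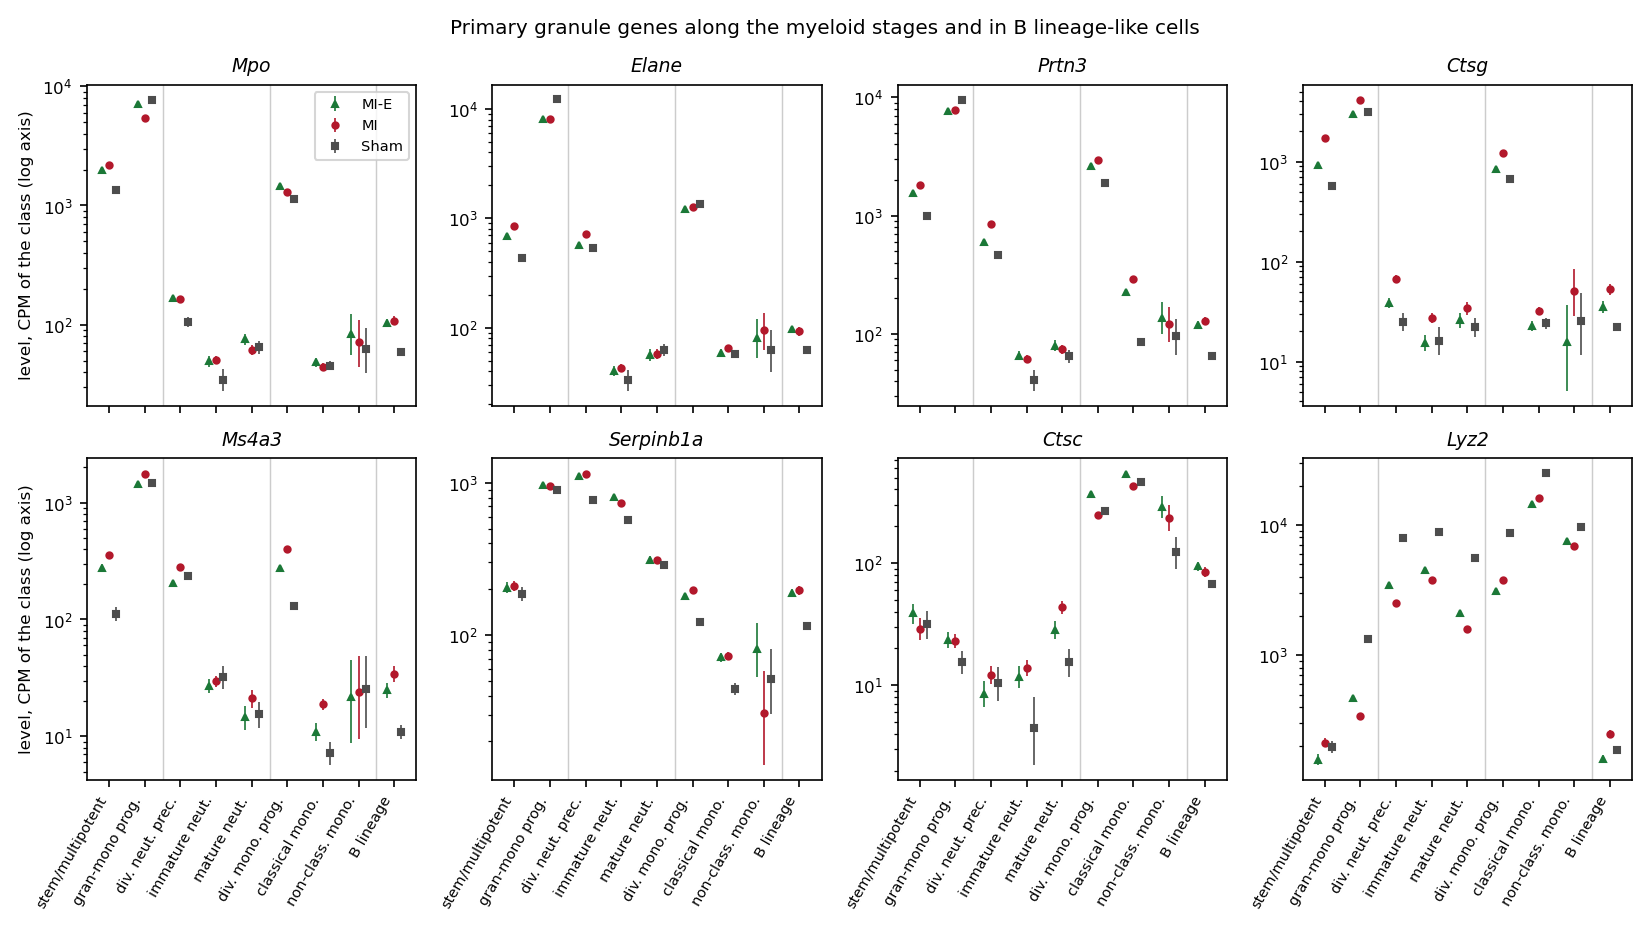
Level of each gene (CPM, log axis) in the myeloid classes, by library; points are single libraries and bars are exact 95% intervals of counting error. Mpo, Elane, Prtn3 and Ctsg are highest in GMP-like cells in each library, Serpinb1a stays high through immature neutrophil-like cells, and Ctsc and Lyz2 are highest in classical monocyte-like cells.

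Ranked by Mpo, 272 MI-E, 280 MI and 143 Sham cells held 50% of its UMIs, that is 1.39%, 1.37% and 0.672% of the cells. For Lyz2 the same share took 9.94%, 10.4% and 7.47% of cells. The share of GMP-like cells in which Mpo, Elane, Prtn3 and Ctsg were all detected was 94.4% in MI-E, 97.9% in MI and 94.0% in Sham. That share was 19.7%, 23.9% and 12.9% in HSPC-like cells and 50.7%, 57.7% and 33.0% in dividing monocyte progenitor-like cells. B lineage-like cells gave 0.0754% in MI-E, 0 of 3907 cells in MI, which allows up to 0.0944%, and 0.0574% in Sham. Their median depth was 1078, 1060 and 1395 UMIs per cell, against 17029, 19568 and 15714.5 in GMP-like cells.

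With every cell thinned to 1000 UMIs, Mpo was detected in 95.1% of GMP-like cells in MI-E (99.3% unthinned), 94.9% in MI (99.8%) and 91.9% in Sham (98.5%). In HSPC-like cells the thinned shares were 30.8%, 30.9% and 29.8% (unthinned 55.1%, 55.7% and 53.1%), against 8.89%, 9.51% and 7.03% in B lineage-like cells (unthinned 12.0%, 11.8% and 10.8%). The thinned HSPC-like shares therefore lay close together while the Mpo levels in CPM did not. Thinned Ctsg shares there were 23.9% in MI-E, 28.9% in MI and 15.7% in Sham (unthinned 37.3%, 45.6% and 29.3%), against 3.65%, 4.63% and 2.69% in B lineage-like cells (unthinned 4.37%, 6.14% and 4.27%). Thinning left out 2019, 1573 and 1117 B lineage-like cells.

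**Figure D2:**
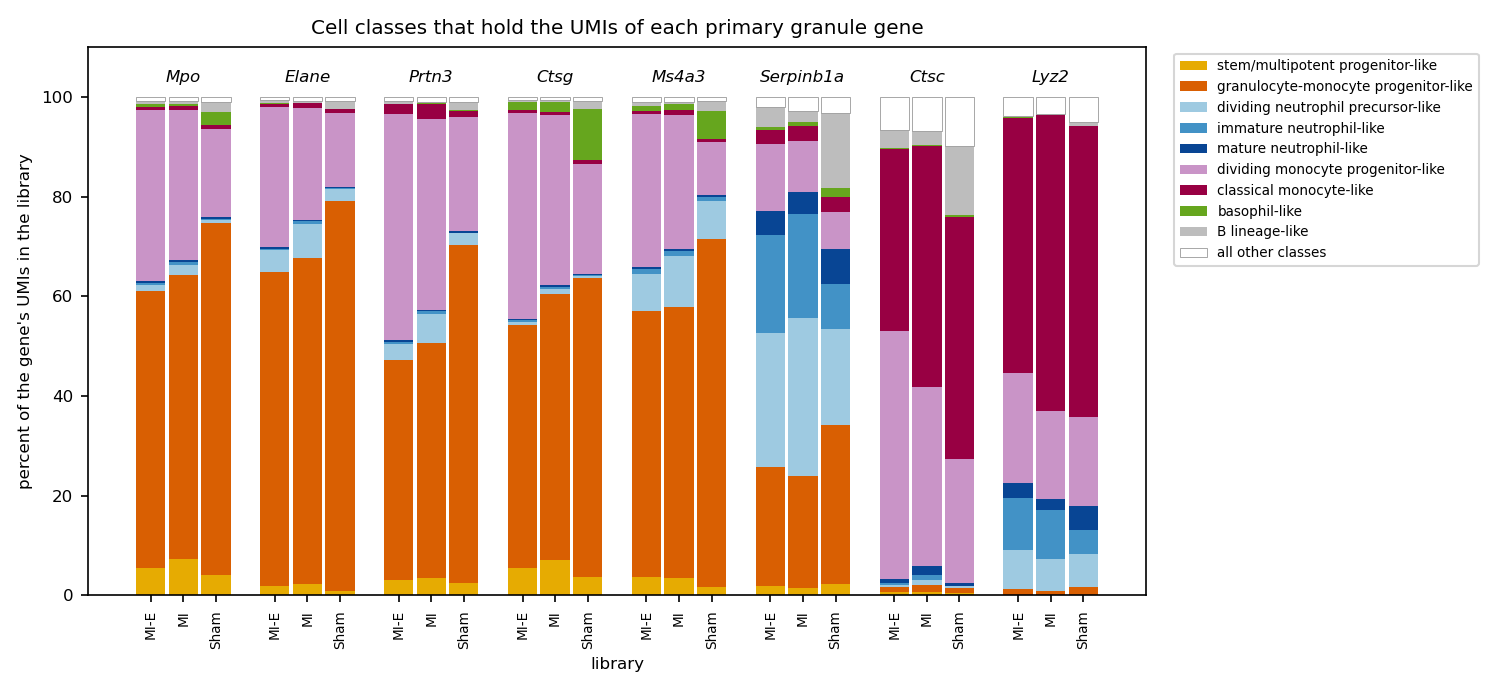
Percent of each gene's UMIs in a library that each cell class holds, as stacked bars that sum to 100, with MI-E, MI and Sham side by side for each gene. GMP-like cells hold the largest part of Mpo, Elane, Ctsg and Ms4a3, while monocyte classes hold most of Ctsc and Lyz2.

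Over 51 pairs of class and library, and among 7100 genes, the genes most like Mpo by Pearson correlation of log2(CPM + 10) were Ctsg (0.963), Ms4a3 (0.921), Prtn3 (0.878), Elane (0.877) and Prss57 (0.844), a further azurophil serine protease. Elane and Prtn3, the chromosome neighbours, were most like each other (0.966). Serpinb1a was nearest Gys1 (0.931), Ctsc nearest Vrk2 (0.903) and Lyz2 nearest Gpr141 (0.941). Mpo stood at 0.475 with Serpinb1a, -0.15 with Ctsc and -0.25 with Lyz2. The pairs share libraries, and no test is given.

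The comparison of MI with Sham asks how the levels differed after infarction. The clearest difference was Lyz2, which was lower in MI at each neutrophil and monocyte stage. Next came a contrast inside the progenitors: the granule proteases were higher in HSPC-like cells of MI, but Mpo and Elane were lower in its GMP-like cells. A gene was counted as past the fold at 1.5-fold in its point value, among genes averaging at least 10 CPM in the libraries compared.

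In HSPC-like cells, 5 of the 8 genes were past the fold higher in MI, against 6.83% of 8464 genes tested, and 0 were lower, against 6.04%. Ctsg stood at 1737 CPM (1691 to 1783) in MI and 573 (539 to 608) in Sham, 3.03-fold higher (2.84 to 3.24). Ms4a3 stood at 359 CPM in MI and 111 in Sham, 3.22-fold higher (2.78 to 3.76). The log2 ratios were 0.98 (0.86 to 1.09) for Elane, 0.88 (0.80 to 0.96) for Prtn3 and 0.70 (0.63 to 0.77) for Mpo. The median Mpo was 1.53 UMIs per 10000 of a cell in MI and 1.51 in Sham, while the highest decile began at 39.2 and 22.3. The medians of Elane, Ctsg and Ms4a3 were 0 in both libraries, and that of Prtn3 was 6.63 in MI and 1.999 in Sham. Ctsg and Ms4a3 were past the fold under each of the 14 alternatives, but the Elane ratio was -0.39 under a stricter cell filter and that of Mpo -0.052 with the 8 genes among the clustering genes. The list median was 0.79, against 0.02 over the genes tested. Secondary and tertiary granule genes, made later in neutrophils, moved with them in HSPC-like cells: 8 of 9 measured were higher in MI and 0 lower (median 2.33), with Camp at 294 CPM in MI and 62.1 in Sham and Ngp at 308 and 45.5. In neutrophil-like cells Camp stood at 34413.5 CPM in MI and 38605 in Sham, and those cells held 29.9% and 13.7% of the UMIs of their library. No B lineage-like level was set beside these later granule genes. Neither their part in the result nor the part of free RNA in their levels was tested.

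In GMP-like cells, 0 of the 8 were past the fold higher in MI, against 8.26% of 7333 genes, and 2 were lower, against 3.16%. These were Lyz2, 3.84-fold lower (3.68 to 3.997), and Elane, 1.52-fold lower (1.51 to 1.54). Mpo was 1.43-fold lower (1.41 to 1.45), just inside the fold, while Ctsg was 1.32-fold higher (1.30 to 1.34) and the log2 ratio of Ctsc was 0.58, also just inside. Medians over cells of Lyz2, Elane, Mpo and Ctsg differed in the same direction, while that of Ctsc was 0 in both libraries. The Serpinb1a median was 8.77 UMIs per 10000 in MI and 8.92 in Sham, although its summed level was slightly higher in MI. The Lyz2 median was 1.54 UMIs per 10000 in MI and 3.28 in Sham, closer than the summed levels, with the highest decile beginning at 9.11 and 50.8. Its summed log2 ratio of -1.94 ran from -3.59 to -1.04 over the alternatives. Elane took 80.9 UMIs per 10000 in MI-E, 81.3 in MI and 126 in Sham, and Mpo 73.3, 56.6 and 83.5. Ctsg took 25.9, 38.5 and 29.8. The list median was -0.11, against 0.09 over the genes tested.

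**Figure D3:**
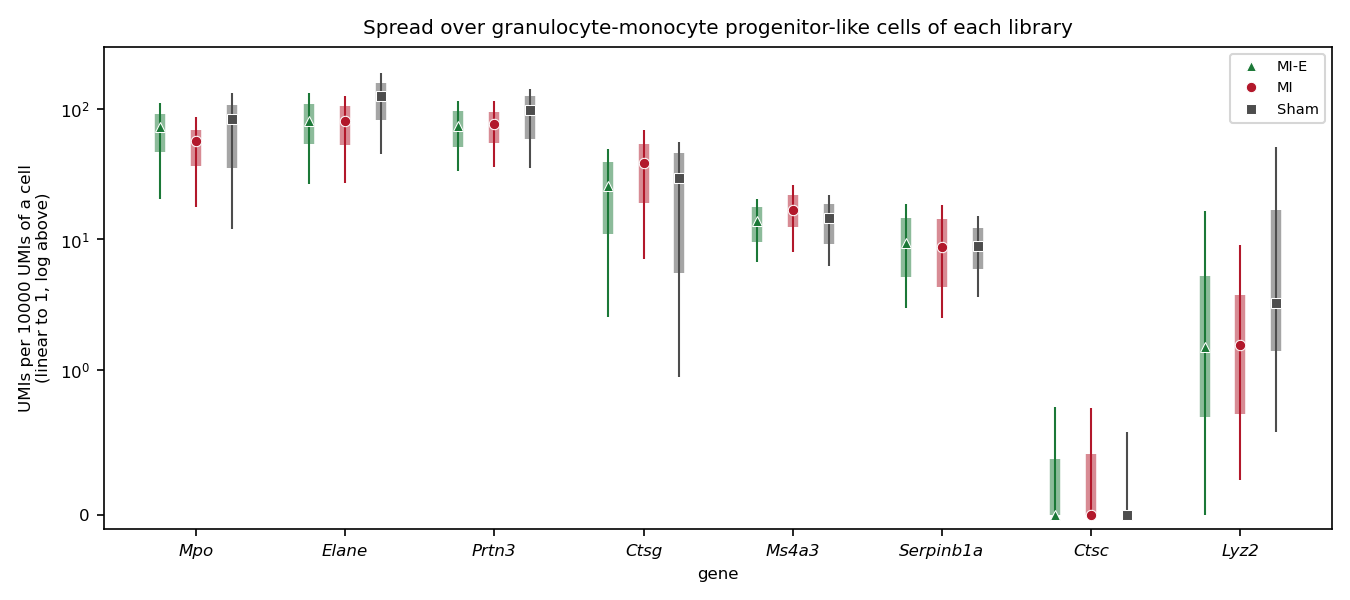
UMIs per 10000 UMIs of a cell in GMP-like cells, by gene and library (linear to 1, log above); points are medians, thick bars run from the lower to the upper quartile and thin lines from the lowest to the highest decile. The Elane median is 126 in Sham and near 81 in MI-E and MI, and the Ctsg median is highest in MI.

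Other gene lists were set beside the 8 in GMP-like cells of MI and Sham. Of other azurophil cargo, 0 of 4 measured genes were past the fold (median -0.30): the proteoglycan core Srgn, which packs the proteases, stood at 2580 CPM in MI and 2666 in Sham, Cd63 at 666 and 981, and Prss57 at 338 and 407. Of 20 lysosomal genes 4 were lower and 0 higher (median -0.30), with Hexa at 65.6 CPM in MI and 165 in Sham. No transcription factor of 10, endoplasmic reticulum folding gene of 11, haem synthesis gene of 7 or cell cycle gene of 10 was past the fold. Among those factors Myb stood at 387 CPM in MI and 394 in Sham, Cebpe at 317 and 404 and Spi1 at 262 and 265. Of 10 secondary and tertiary granule genes 3 were higher and 3 lower. Camp was among the lower ones, at 7075 CPM in MI and 14141 in Sham, which moved with Lyz2 there; its part in the Lyz2 difference was not tested.

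In neutrophil-like cells, 3 of the 8 were past the fold higher in MI, against 4.27% of 6107 genes, and 1 was lower, against 5.37%. Lyz2 was the lower one. It stood at 2529 CPM in MI and 7868 in Sham in dividing precursor-like cells, 3.11-fold lower (3.06 to 3.16), and at 1599 and 5601 CPM in mature neutrophil-like cells, 3.50-fold lower (3.42 to 3.59). The higher ones were Ctsg (log2 ratio 1.04), Ctsc (0.83) and Prtn3 (0.83). These pooled ratios also follow the mix of stages. Mature neutrophil-like cells were 2502 of 6787 neutrophil-like cells in MI and 1520 of 2572 in Sham. Ctsg in B lineage-like cells was 52.7 CPM in MI and 22.3 in Sham, above the 27.2 and 16.2 CPM of immature neutrophil-like cells. Ctsc in mature neutrophil-like cells stood at 43.7 and 15.4 CPM, under the B lineage-like level and above the 16.6 and 10.6 CPM of erythroid-like cells. The part of free RNA in both was not tested. The Prtn3 ratio was -0.054 under the stricter filter. The list median of 0.50, against 0.02 over genes tested, was -0.066 under that filter and 0.055 with 4000 variable genes.

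In monocyte-like cells, 4 of the 8 were past the fold higher in MI, against 7.44% of 7715 genes, and 1 was lower, against 8.28%. Ms4a3 stood at 401 CPM (393 to 410) in MI and 131 (124 to 138) in Sham in dividing monocyte progenitor-like cells, 3.07-fold higher (2.89 to 3.26). Prtn3 stood at 290 CPM in MI and 85.5 in Sham in classical monocyte-like cells, 3.40-fold higher (3.16 to 3.65), and was past the fold under each alternative run, with log2 ratios from 0.84 to 2.9995. Both levels lay under those of natural killer-like cells, and the part of free RNA in this difference was not tested. Pooled log2 ratios were 1.10 for Ctsg and 0.82 for Serpinb1a, and within dividing monocyte progenitor-like cells they were 0.86 and 0.69. In that class 684 of 924 Sham cells lay in 1 sub-cluster, which held 7 MI cells. Library and cell state cannot be told apart there, for these ratios or for that of Ms4a3. Pooled ratios also follow the mix of stages. Dividing monocyte progenitor-like cells held 21.8% of library UMIs in MI and 12.7% in Sham, out of 39.2% and 27.6% in all monocyte-like cells. The pooled Serpinb1a levels, 142 CPM in MI and 80.1 in Sham, lay under the B lineage-like 196 and 114 and above the erythroid-like 38.9 and 12.0. Lyz2 had a pooled log2 ratio of -0.91, with 16060 CPM in MI and 24812 in Sham in classical monocyte-like cells. Thinned to 1000 UMIs, 17.0% of MI-E, 21.3% of MI and 6.43% of Sham classical monocyte-like cells held Prtn3 (unthinned 49.0%, 56.8% and 21.3%), against 10.7%, 12.5% and 7.61% of B lineage-like cells (unthinned 14.2%, 13.7% and 11.8%). The thinned Sham share thus did not exceed that of B lineage-like cells, although its unthinned share and its CPM did. Secondary and tertiary granule genes were also higher, 8 of 10 past the fold (median 0.68). Neither their part in the result nor the part of free RNA in their levels was tested. The members' median was 0.64, against 0.02 over the genes tested.

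**Figure D4:**
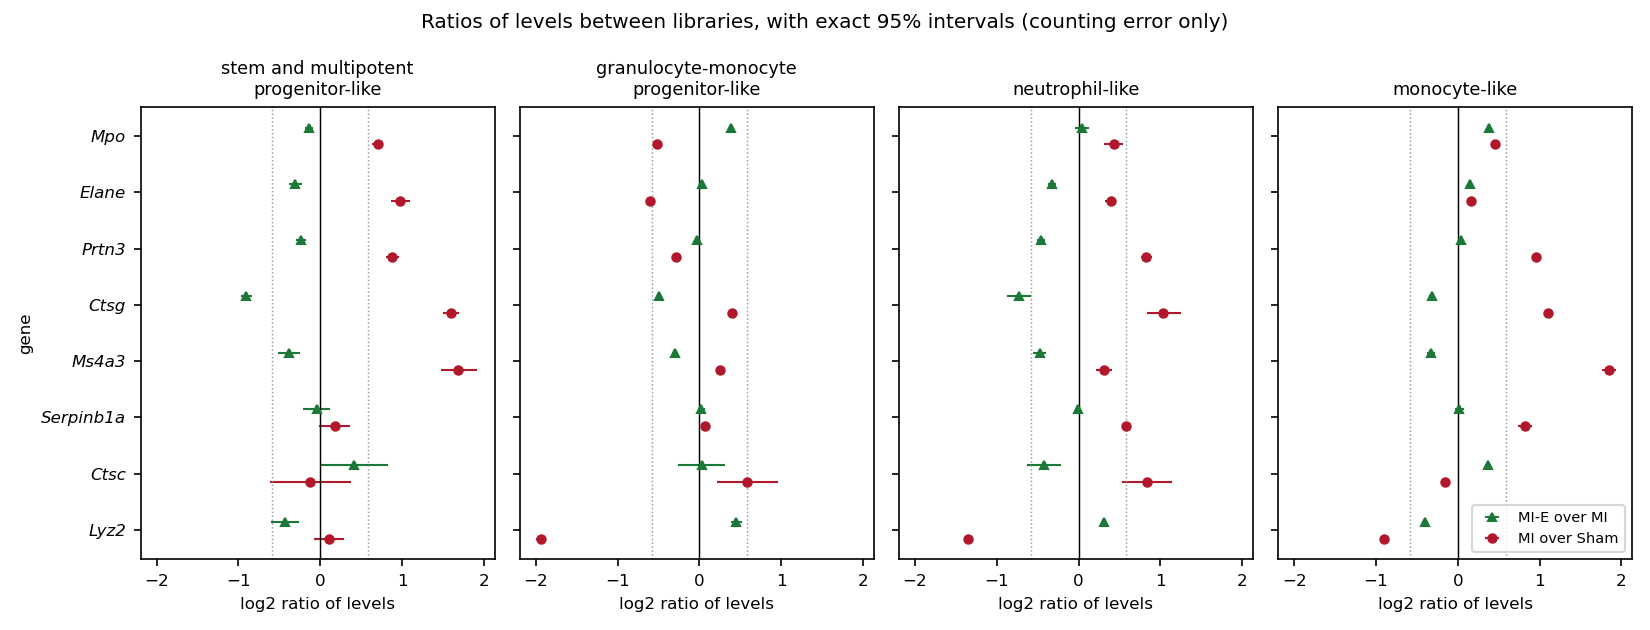
Log2 ratio of each gene for MI-E over MI and for MI over Sham, with exact 95% intervals of counting error and lines at 1.5-fold. The classes are HSPC-like, GMP-like, pooled neutrophil-like and pooled monocyte-like cells. In MI over Sham, Lyz2 lies below 0 in the GMP-like, neutrophil-like and monocyte-like cells, and Ctsg and Ms4a3 in HSPC-like cells lie at 1.60 and 1.69.

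Progenitor classes were clustered again on their own, a step chosen after the class values were seen, and levels were taken over the cells of each sub-cluster's main class alone. In GMP-like cells of the sub-cluster led by Nkg7, Srgn and Rgcc, Elane stood at 8945 CPM (8880 to 9012) in 374 MI cells and 13604 in 233 Sham cells, and Mpo at 5659 and 9024. Both differences of the whole class were therefore also present there. In dividing monocyte progenitor-like cells led by C1qbp and Srm, Elane stood at 2081 CPM in 372 MI cells and 3801 in 74 Sham cells, and Mpo at 2794 and 4410, although Mpo over the whole class was higher in MI. Ctsg in the C1qbp sub-cluster stood at 2330 CPM in MI and 2060 in Sham. In dividing neutrophil precursor-like cells led by Ngp, Camp and Ltf, Mpo stood at 173 CPM in MI and 57.1 in Sham. Elane stood at 737 and 324 CPM there and Ctsg at 47.1 and 21.5. Each was higher in MI, as over the whole class. Ctsg, however, lay under the B lineage-like level in both libraries, and Mpo of Sham lay under it too. The part of free RNA in these differences was not tested. The main HSPC-like sub-cluster, led by Ctla2a, Dntt and Adgrg1, had Mpo at 2430 CPM in MI and 1240 in Sham. Ctsg stood at 1962 and 554 CPM there and Ms4a3 at 375 and 73.7. Lyz2 was lower in MI in the Nkg7 (345 and 609.9 CPM), C1qbp (713 and 1196) and Ngp (2478 and 8045) sub-clusters.

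**Figure D5:**
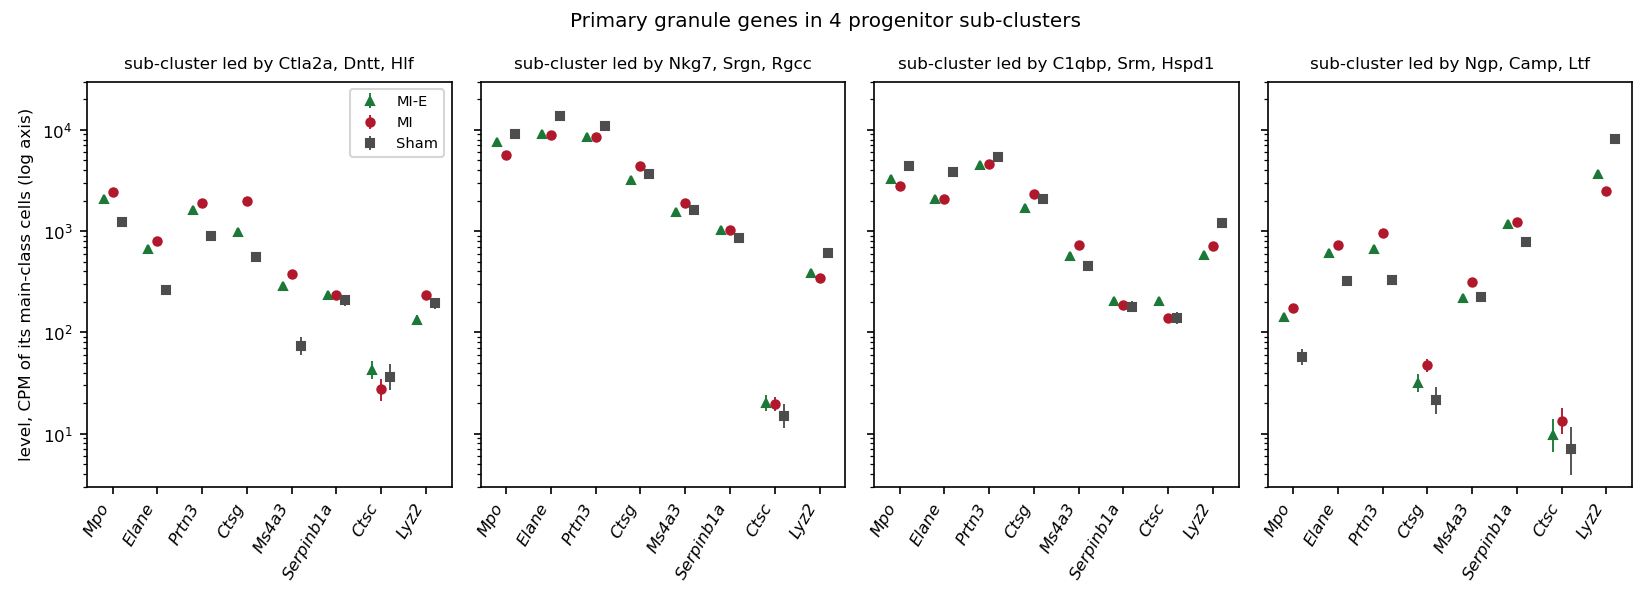
Level of each gene (CPM, log axis) in main-class cells of 4 sub-clusters of the progenitor classes, by library, with exact 95% intervals of counting error. Mpo is lower in MI than in Sham in the sub-clusters led by Nkg7 and C1qbp and higher in those led by Ctla2a and Ngp. In the Ngp sub-cluster, Mpo of Sham lies under the B lineage-like level.

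Summed over all cells, levels also follow how many cells of each class a library holds. The all-cell log2 ratio of MI over Sham was 0.23 for Mpo and 0.08 for Elane. With the class shares of Sham UMIs applied to MI they were -0.24 and -0.42. For Ctsg and Ms4a3 the values were 1.01 and 1.04 as measured and 0.53 for each at fixed shares, and for Lyz2 they were -0.41 and -0.84.

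The comparison of MI-E with MI asks whether levels differed after infarction with EMPA. Ctsg and Ms4a3 were lower in MI-E in each of the 4 myeloid classes where both lay above the B lineage-like level in both libraries, the HSPC-like, GMP-like, dividing neutrophil precursor-like and dividing monocyte progenitor-like cells. The log2 ratios there ran from -0.90 to -0.49 for Ctsg and from -0.55 to -0.29 for Ms4a3, and each interval lay under 0. In the other 4 classes both genes were lower in MI-E at levels at or under the B lineage-like one in at least 1 of the libraries, and that level was itself lower in MI-E (Ctsg 35.2 CPM in MI-E and 52.7 in MI, Ms4a3 24.8 and 34.3). In HSPC-like cells Ctsg stood at 928 CPM (893 to 964) in MI-E and 1737 (1691 to 1783) in MI, 1.87-fold lower (1.79 to 1.96). In GMP-like cells Ctsg was 1.41-fold lower (1.39 to 1.43) and in dividing monocyte progenitor-like cells 1.47-fold lower (1.44 to 1.497). Mpo in GMP-like cells was 1.31-fold higher in MI-E (1.29 to 1.32), Elane had a log2 ratio of 0.03 and Prtn3 of -0.03.

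Counts of members past the fold were small. In HSPC-like cells 0 were higher, against 4.05% of 8526 genes tested, and 1 (Ctsg) was lower, against 1.98%; it was past the fold under each of the 14 alternatives. In GMP-like cells 0 were higher, against 2.38% of 7511 genes, and 0 lower, against 1.01%. In neutrophil-like cells 0 were higher, against 1.5% of 6122 genes, and 1 (Ctsg) was lower, against 0.98%, at levels under those of B lineage-like cells in the immature and mature stages. In monocyte-like cells 0 were higher, against 1.65% of 7781 genes, and 0 lower, against 1.08%. Medians of the 8 log2 ratios were -0.27 in HSPC-like, 0.02 in GMP-like, -0.37 in neutrophil-like and 0.03 in monocyte-like cells. Median-of-ratios scaling, which centres the genes tested, shifted them by -0.078, -0.097, -0.096 and -0.097 in that order. All 4 medians thus lay below that of the genes tested.

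Ctsc was higher in MI-E along the monocyte line, at 366 CPM (358 to 374) in MI-E and 249 (242 to 255) in MI in dividing monocyte progenitor-like cells and at 530 and 425 in classical monocyte-like cells, inside the fold in both. Ms4a3 was lower in classical monocyte-like cells (log2 ratio -0.79), at 10.9 and 18.8 CPM, under the B lineage-like level of 24.8 in MI-E and 34.3 in MI. Endoplasmic reticulum folding genes, which serve secretory cargo, had a median of 0.38 in GMP-like cells with 1 of 11 past the fold higher. In HSPC-like cells, secondary and tertiary granule genes were lower in MI-E for 8 of 10 (median -0.95), with Camp at 131 CPM in MI-E and 294 in MI. No B lineage-like level was set beside them. Neither their part in the Ctsg difference nor the part of free RNA in their levels was tested.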

How the data were processed

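For each library the authors deposited raw UMI counts by gene and barcode, all whole numbers. The submitters' processing notes name Cell Ranger 5.0.1 and build mm10; the sources used here give no annotation release. A cell was kept with 300 or more genes, 500 or more UMIs and no more than 10% of UMIs from mitochondrial genes, and likely doublets were removed (12.8% in MI-E, 12.8% in MI and 15.1% in Sham). Cells were clustered with scanpy 1.11.5 on 2000 variable genes, without the 8 genes, Prss57, immunoglobulin and T cell receptor segments, mitochondrial and ribosomal protein genes (40 components, 20 neighbours; leidenalg 0.10.2 at resolution 1 gave 26 clusters). The 8 genes, marker lists and gene lists were chosen with earlier results of these data known. Named genes were the 8, the 3 genes of each other list with the largest mean CPM in GMP-like cells and the correlation leaders; Hexa was chosen after its values were seen. UMIs were summed per class and library. Levels carry exact Poisson, shares Clopper-Pearson and ratios conditional binomial 95% intervals; PCR and animal variation are outside them. Precision follows class depth. The ratio intervals, the fold call and the scalings were tried on simulated class sums, and the other steps were not. Alternatives covered filters, doublets, clustering, thinning, weighting, scaling and free RNA. Positions came from GENCODE M21.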

Additional observations from a re-analysis of the deposited data

How the results depend on the processing

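Of 48 ratios of single genes past the 1.5-fold level in a class, 41 kept their direction under each alternative run and 22 also stayed past the fold (19 of 40 for MI over Sham, 3 of 8 for MI-E over MI). There were 14 alternatives, 12 planned and 2 chosen after seeing the data, and Leiden resolution 0.5 gave no GMP-like class. It also gave 0 dividing neutrophil precursor-like cells and left 4970 cells unnamed. The stricter filter gave 0 dividing monocyte progenitor-like and 0 non-classical monocyte-like cells. The pooled classes under these settings are thus made of fewer stages. With the 8 genes among the clustering genes, the GMP-like class held 1381 MI-E, 1452 MI and 683 Sham cells. For MI over Sham in GMP-like cells the median over the 8 genes (-0.11) was -0.21 with 4000 variable genes, -0.25 at Leiden resolution 2, -0.30 with free RNA subtracted, -0.20 and -0.19 with median-of-ratios and trimmed mean of M values scaling, -0.26 with the 8 genes among the clustering genes and -0.18 under the stricter cell filter. In monocyte-like cells (0.64) it was 0.33 at resolution 2 and with the 8 genes among the clustering genes, 0.53 with cells thinned, 0.77 with doublets kept, 0.40 with free RNA subtracted and 0.48 under the stricter filter. In neutrophil-like cells (0.50) it was 0.055 with 4000 variable genes, 0.30 at resolution 0.5, 0.32 with free RNA subtracted (5 genes left), 0.62 with the 8 genes among the clustering genes, -0.066 under the stricter filter, 0.61 without sub-clusters led by B or T lineage genes and 0.60 without the top cell of each gene. For MI-E over MI in GMP-like cells (0.02) it was -0.12 at resolution 2, 0.066 thinned, 0.062 with equal weight of cells, -0.073 and -0.10 with the 2 scalings in the order above, -0.10 with the 8 genes among the clustering genes and -0.14 under the stricter filter. In monocyte-like cells (0.03) it was -0.061 at resolution 2, -0.019 thinned, -0.067 and -0.058 with the scalings and -0.060 under the stricter filter. In neutrophil-like cells (-0.37) it was -0.48 with 4000 variable genes, at resolution 2 and with free RNA subtracted, -0.086 at resolution 0.5, -0.17 with doublets kept and -0.47 with both scalings. The cause of these shifts was not tested.

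Single ratios of MI over Sham that turned were Elane in HSPC-like cells (-0.39, stricter filter), Mpo in HSPC-like cells (-0.052, the 8 genes among the clustering genes) and Mpo in dividing neutrophil precursor-like cells (-0.54 with 4000 variable genes, -0.78 under the stricter filter). Under the stricter filter Prtn3 turned in dividing neutrophil precursor-like cells (-0.16) and in neutrophil-like cells (-0.054). Serpinb1a turned in dividing monocyte progenitor-like cells with free RNA subtracted (-4.11). In non-classical monocyte-like cells Serpinb1a turned with 4000 variable genes (0.95), at resolution 0.5 (1.23), with doublets kept (1.07) and with equal weight of cells (0.76). The cause was not tested. Counts of members past the fold ran over the alternatives as follows, for MI over Sham: 2 to 5 higher in HSPC-like, 0 to 1 higher and 1 to 3 lower in GMP-like, 1 to 5 higher and 1 to 2 lower in neutrophil-like, and 2 to 5 higher and 0 to 1 lower in monocyte-like cells. For MI-E over MI they were 0 to 2 higher and 0 to 4 lower in HSPC-like cells, and 0 to 1 in either direction in the other classes, with 0 higher in neutrophil-like cells throughout. At 2-fold, MI over Sham kept 2 higher in HSPC-like and in monocyte-like cells and 1 in neutrophil-like cells, and 1 lower in GMP-like and in neutrophil-like cells. No paired analysis was possible because each group has 1 library. With that, no spread between animals is known and intervals cover counting error only. Levels at or under those of B lineage-like cells cannot be told from free RNA. For Ctsc and Serpinb1a this floor is less clear. Their B lineage-like levels ran from 45.6% to 56.0% and from 46.4% to 54.4% of the all-cell level, far above the erythroid-like ones. The B lineage-like level also lay above the erythroid-like one for Mpo, Elane, Prtn3, Ctsg and Ms4a3 in each library.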

Other observations

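Natural killer-like cells held Mpo at 416 CPM in MI-E, 298 in MI and 118 in Sham and Ctsg at 144, 345 and 60.8, above the B lineage-like level of each gene in each library, although natural killer cells are not known to make azurophil granules. The cluster held 293, 189 and 135 cells, and its content of progenitor RNA was not tested. Among classes outside the neutrophil and monocyte lines, Lyz2 was also lower in MI than in Sham in conventional dendritic-like cells (3143 against 6283 CPM) and in C1q macrophage-like cells (4309 against 8292 CPM), where MI-E stood at 3144 and 3999 CPM. Other classes did not all go that way. All-cell levels of Lyz2 were 4635 CPM in MI and 6151 in Sham. T-like cells stood at 4.36% and 6.13% of them, lower in MI. B lineage-like cells stood at 5.40% and 3.05%, higher in MI. Serpinb1a in C1q macrophage-like cells stood at 203 CPM in MI-E, 388 in MI and 156 in Sham. Among listed inhibitors of the granule serine proteases other than Serpinb1a, Slpi had the highest level in GMP-like cells, at 168 CPM in MI-E, 169 in MI and 147 in Sham. The sub-cluster of dividing monocyte progenitor-like cells led by Ifi27l2a and Fos held 684 of its 695 cells from Sham, and the 3 led by Vcan or Lpl held 3, 7 and 5 Sham cells, so Sham and MI sampled much of that class in different clusters.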
